A study of Caenorhabditis elegans with 4 samples.

Results

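The left and middle of chromosome X carried 296 of the 3006 NHR-11 peaks in the series list of a chromatin immunoprecipitation and sequencing (ChIP-seq) experiment in Caenorhabditis elegans. The region was taken as all peaks of chromosome X whose midpoint lay below 11.8 Mb on build WS220, a rule of position that used no peak height. By the same rule the replicate 1 list held 137 such peaks of 1247 and the replicate 2 list 148 of 1190. The nearest peak inside the boundary lay at X 11797390 to 11798003 (614 bp, −log10 q 4.14). The nearest outside lay at X 11841841 to 11841907 (67 bp, −log10 q 3.43), and neither of these peaks was found in a replicate list.

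The animals were hermaphrodite L1 larvae (labelled L1 26dC, with growth at 20 °C in the protocol) of OP305, a strain in which all animals carry the mutation unc119(ed3) and the transgene wgIs305, made by bombardment, which expresses NHR-11 with TY1, EGFP and FLAG tags and also carries unc119. They were fixed in 2% formaldehyde. The study comprised 2 NHR-11 ChIP libraries, collected with anti-GFP antibodies, and 2 input libraries made from the same kind of lysate without immunoprecipitation. Lists of peaks from each ChIP library and from the whole series were analysed, and input values were not analysed here. The map is of a tagged transgene product in whole larvae, so the cells in which a site was bound cannot be told.

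NHR-11 belongs to the nuclear hormone receptors, transcription factors that bind DNA through zinc fingers and have a domain for small lipophilic ligands. This family is greatly expanded in C. elegans, and most of its members have no known ligand. Chromosome X is the chromosome on which hermaphrodites and males differ in copy number. In hermaphrodites a dosage compensation complex related to condensin binds X, spreads from recruitment sites along the chromosome and lowers its transcription. No map of that complex or of another transcription factor was analysed here. No genome sequence or annotation of WS220 was used, so each peak is given by its position, without genes or bases.

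Peak height is −log10 of the authors' score for each peak, taken as a q-value, so greater height means stronger evidence of binding in that list. It depends on read depth and on peak width as well as on occupancy, and the depth of these libraries is unknown. Heights were therefore compared within a list, or for the same site between lists. Comparisons between lists carry any difference of depth. All peaks came from the same 2 ChIP libraries, and the labels do not say that these were separate cultures. An exact sign-flip test over 2 replicates could not give a two-sided p below 0.5, so differences are given without a test, as values of each list. Intervals are exact 95% intervals that cover counting error only, and they treat neighbouring peaks as independent.

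In the series list NHR-11 peaks were fewer per Mb on the left and middle of X than on the autosomes, but a larger share of them was very high. The series list held 25.1 peaks per Mb there (interval 22.3 to 28.1) and 33.3 per Mb (31.9 to 34.8) on chromosomes I, II, III and V together, chromosome IV being set aside. The number of peaks with a −log10 q over 50 was 17, or 1.44 per Mb, on the left and middle of X, and 27, or 0.415 per Mb, on those autosomes. Such peaks made up 5.74% of the left and middle X peaks and 1.25% of the autosomal ones, against 1.9% of all series peaks.

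The intervals of density did not overlap in the series list, while in both replicate lists the difference was smaller and the intervals overlapped. Replicate 1 had 11.6 peaks per Mb (9.75 to 13.7) on the left and middle of X and 14.3 (13.4 to 15.2) on the 4 autosomes. Replicate 2 had 12.5 (10.6 to 14.7) on the left and middle of X and 13.3 (12.4 to 14.2) on the 4 autosomes. The density on the left and middle of X over that on the 4 autosomes gave a ratio of 0.753 for the series, 0.813 for replicate 1 and 0.946 for replicate 2. Taken singly in the series list, the autosomes ran from 29.4 peaks per Mb on V to 42.4 on III, all above the left and middle of X. In replicate 2 only III, at 18.6 per Mb, stood above it, and I, II and V had 12.3, 11.6 and 11.6. Chromosome IV, at 16.8 per Mb in the series list, was sparser than the left and middle of X in every list.

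The right of X, from the boundary to the last peak, was denser than the left and middle in each list. The left and middle of X had 25.1, 11.6 and 12.5 peaks per Mb in the series, replicate 1 and replicate 2 lists, against 42.7, 18.2 and 19.03 on the right. Among high peaks the lists differed. Peaks with a −log10 q over 20 numbered 3.22 per Mb on the left and middle and 3.40 per Mb on the right in the series list, and those over 50 numbered 1.44 and 1.70. The density on the left and middle over that on the right was 0.588 for all series peaks, 0.948 for those over 20 and 0.848 for those over 50. In replicate 1 the ratio was 0.639 for all peaks, 0.691 over 20 and 0.598 over 50. In replicate 2 it was 0.659, 0.806 and 0.582 for the same classes, so in both replicate lists the ratio over 50 was below that of all peaks, on few peaks. Those over 50 numbered 6 on the left and middle and 5 on the right in replicate 1, where 1.12% of the whole list passed, and 7 and 6 in replicate 2, where 1.34% did.

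**Figure D1:**
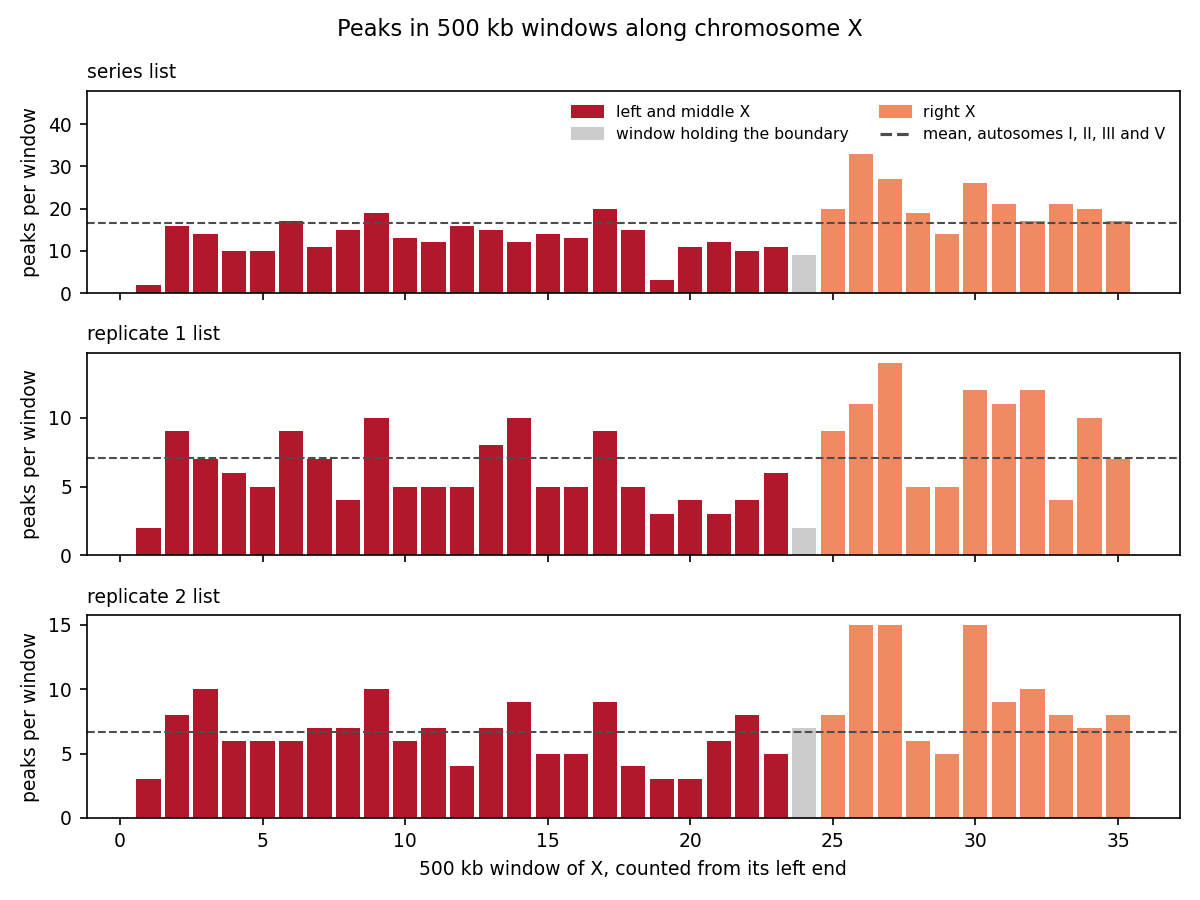
Number of peaks in 500 kb windows of chromosome X, counted from its left end, in the series, replicate 1 and replicate 2 lists; the dashed line is the mean over 500 kb windows of chromosomes I, II, III and V. In the series list 20 of the 23 left and middle X windows lie below that mean of 16.6 peaks. Below the mean of their own list lie 17 of them in replicate 1 and 13 in replicate 2. Windows 1 and 19 of the series list hold 2 and 3 peaks.

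Along the region the density was fairly even, apart from a few sparse stretches. The 23 complete windows of 500 kb held 12.7 ± 4.23 series peaks (SD over windows), against 16.6 ± 7.38 in 128 windows of the 4 autosomes. The variance was 1.41 times the mean on the left and middle of X and 3.29 times the mean on the autosomes. On the right of X it was 1.36 times the mean over 11 windows, so this evenness was not particular to the left and middle. The autosomal value pools 4 chromosomes that differ in density. Replicate lists gave 5.91 ± 2.31 and 6.26 ± 2.12 peaks per window on the left and middle of X. Over the 23 windows the counts of replicate 1 and replicate 2 had a Spearman's rho of 0.652, a description of windows that share the mappability and gene density of their stretch. The fullest windows of the series list lay at 8.0 to 8.5 Mb with 20 peaks and at 4.0 to 4.5 Mb with 19. The stretch at 4.0 to 4.5 Mb also had the most peaks in both replicate lists, with 10 in each, a number matched by 6.5 to 7.0 Mb in replicate 1 and by 1.0 to 1.5 Mb in replicate 2.

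The sparsest windows were at the left end and at 9.0 to 9.5 Mb. The first 500 kb held 2 series peaks, 2 in replicate 1 and 3 in replicate 2, and the first series peak began at 353203. The window at 9.0 to 9.5 Mb held 3 peaks in each list, yet one of them, at X 9465354 to 9466330, was the fifth highest of the region. The longest stretch between neighbouring series peaks ran from 7501278 to 7791728, 290 kb, and the next from 10772940 to 11031045, 258 kb. Neither replicate list had a peak in these stretches or in the 3 next longest, which began at 9188652, 6410755 and 1093754 and were 208 to 242 kb long.

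Equal stretches of the region differed in density more than in strong sites. From left to right, 4 stretches of 2.95 Mb each held 66, 87, 87 and 56 series peaks. They held 5, 6, 5 and 6 of the 100 highest peaks of the whole list. Replicate 1 had 36, 36, 42 and 23 peaks in them and replicate 2 had 37, 41, 40 and 30, so the last stretch was the sparsest in every list.

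**Figure D2:**
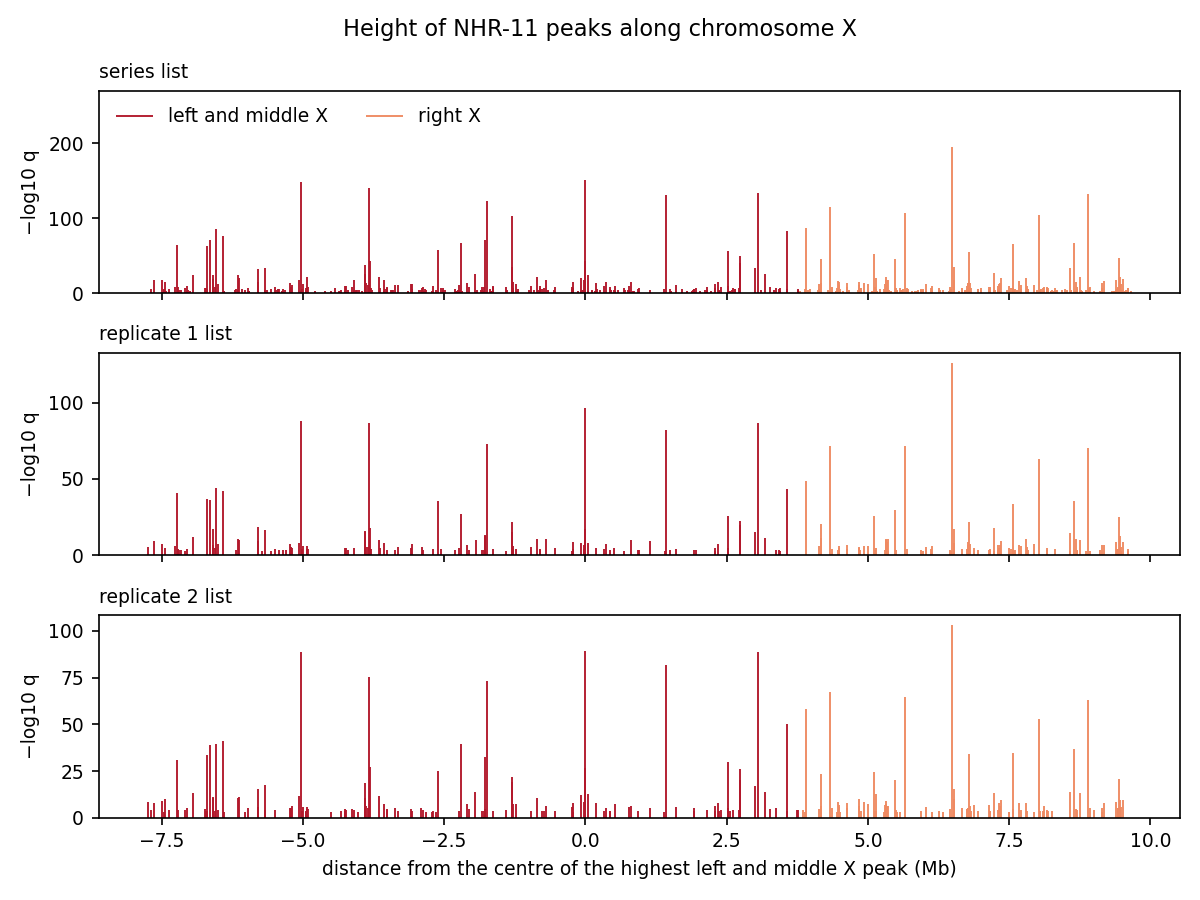
Height (−log10 q) of every peak on chromosome X in the series, replicate 1 and replicate 2 lists, by its distance in Mb from the centre of the highest left and middle X peak. The 6 highest left and middle X sites have series heights of 123 to 151 and replicate heights of 73.01 to 96.5, and the right of X holds the highest peak of the chromosome in each list, at 195 in the series, 126 in replicate 1 and 103 in replicate 2.

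A small set of sites carried the highest values. In the series list 7 left and middle X peaks had a −log10 q over 100, as did 5 peaks on the right of X, 1 on the 4 autosomes and 0 on IV, which together were 0.432% of all series peaks. Of these 7, the 6 that were a single peak in every list took up all the ranks from 3 to 8 in replicate 1, and again in replicate 2. The highest autosomal peak of each replicate list, at 222 in replicate 1 and 251 in replicate 2, overlapped no series peak. The autosomal count over 100 in the series list therefore leaves these peaks out.

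The highest peak of the region lay at X 8035562 to 8036985 (1424 bp, q = 1.655e-151), with a −log10 q of 96.5 in replicate 1 and 89.1 in replicate 2. The next lay at X 2996139 to 2997785 (1647 bp), where the series height was 148 and the replicate heights were 87.99 and 88.6. The replicates lay closer together at X 2996139 (88.3 ± 0.456, SD, n = 2) than at X 8035562 (92.8 ± 5.21, SD, n = 2).
The peak at X 4208342 to 4209871 (1530 bp) reached 139.98 in the series, with 86.6 in replicate 1 and 75.5 in replicate 2. At X 11093679 to 11094570, a narrower site of 892 bp, the series value was 134, with 86.4 in replicate 1 and 88.7 in replicate 2. The site was also the most isolated of the 6, with no other series peak within 56.9 kb.
The peak at X 9465354 to 9466330 (977 bp) had 131 in the series, and replicate values of 82.3 and 81.7. The peak at X 6296128 to 6297453 (1326 bp) had 123 in the series, and replicate values of 73.01 and 73.1. Its replicate values were the closest of all 20 named peaks, at 73.04 ± 0.0462 (SD, n = 2).

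These 6 sites were spread widely over the region. From left to right, the distances between neighbouring centres were 1.21, 2.09, 1.74, 1.43 and 1.63 Mb, and the first centre lay 2.997 Mb from the left end. The series value of each was 0.763 to 0.864 times the sum of its replicate values, below the median ratio of 0.996 over the 96 members found in both replicate lists.

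The seventh peak over 100 was built differently. The series list gave 1 peak of 3735 bp at X 6740646 to 6744380, with a −log10 q of 103. Replicate 1 had 3 separate peaks in that span, with heights of 15.3, 9.38 and 21.96, and replicate 2 had 3 with heights of 22.1, 16.9 and 8.50. The series value was 2.34 times the sum of the highest replicate peaks. A similar site at X 6252115 to 6256010, the widest of the region at 3896 bp, had 71.05 in the series list. Replicate 1 split it into 3 peaks, the highest at 13.2, and replicate 2 into 2, the highest at 32.8 and 3033 bp wide. The lists thus divided the same stretch differently at these sites, and the part of this in their heights was not tested. At X 4142064 to 4143937, divided in replicate 2, the series value was 1.09 times the sum of the highest replicate peaks. Of the 96 members found in both replicate lists, 5 were divided in at least 1 of them, against 16 of 626 autosomal peaks.

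**Figure D3:**
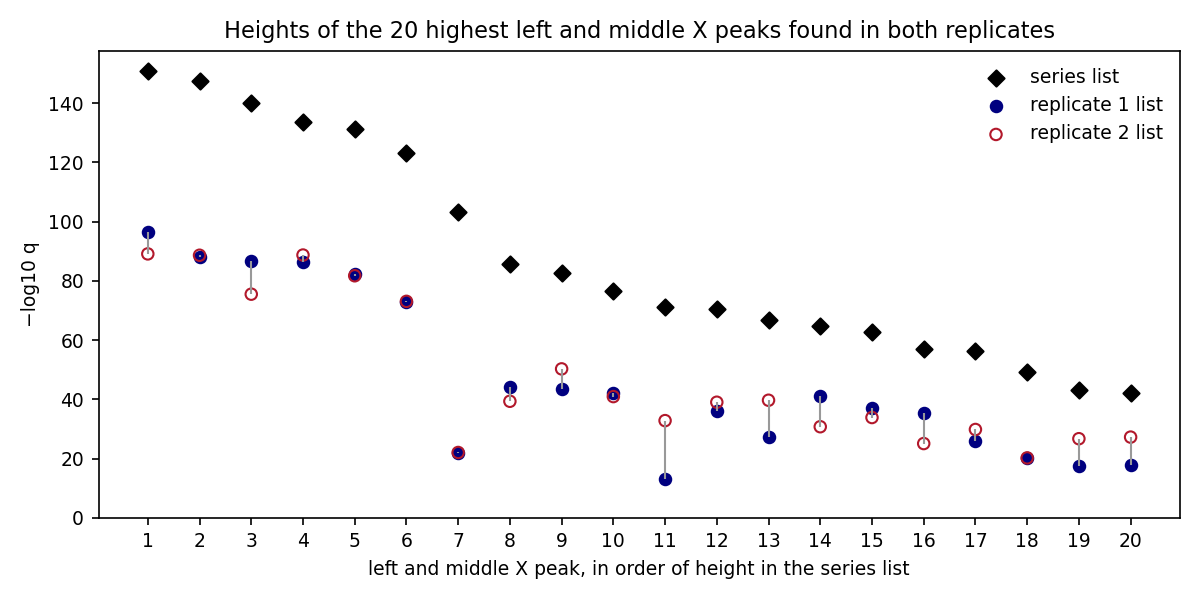
Height (−log10 q) of the 20 highest left and middle X peaks found in both replicate lists, in order of series height: black diamonds, series list; blue points, replicate 1; open red circles, replicate 2; grey lines join the replicates. The first 6 lie at 73.01 or more in both replicates, peak 7 falls to 22.0 and 22.1 where it is divided into 3 peaks in each replicate list, and peak 11 has the widest gap, 13.2 against 32.8.

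The other 13 of the 20 highest peaks found in both replicate lists had series heights of 42.1 to 85.7. Among these the highest lay at X 1503352 to 1505160, at 85.7 in the series list, against 44.3 in replicate 1 and 39.3 in replicate 2. It was followed by X 11605307 to 11606990, with 82.6, 43.5 and 50.3, and by X 1626823 to 1627791, with 76.7, 42.2 and 40.9 in the same lists. Of all 20 peaks, 8 were higher in replicate 1 and 12 in replicate 2, so neither library was higher throughout. Their widths ran from 666 bp, at X 5429147 to 5429812, to the 3896 bp given above. The worst rank of any of the 20 was 170 in replicate 1, at the divided site of 3896 bp, and 85 in replicate 2.

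Strong sites, counted as members of the 100 highest series peaks, numbered 22 on the left and middle of X and 57 on the 4 autosomes. They made up 7.43% (4.72 to 11.04%) of the left and middle X peaks and 2.63% (2.00 to 3.40%) of the autosomal ones, against 3.33% of all series peaks. Per Mb this was 1.86 on the left and middle of X, 2.21 on the right of X and 0.877 on the 4 autosomes. The 100 highest peaks of each replicate list gave 20 and 23 on the left and middle of X and 60 and 59 on the 4 autosomes. Among single autosomes III came closest, with 22 strong sites or 1.60 per Mb, and V had 0.526 per Mb. All 22 sites were found in both replicate lists, as were all of the 100 highest series peaks (100%), so this count says nothing particular about X.

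Distances between neighbouring strong sites on the left and middle of X varied widely. The median distance between neighbouring centres was 412 kb, with a range of 5.26 to 1430 kb, with 5 of 21 distances under 50 kb and 6 over 1 Mb. Of the 22 sites, 10 had another strong site within 50 kb, as had 14 of 57 on the 4 autosomes and 0 of 13 on the right of X. In the replicate lists the counts within 50 kb were 6 of 20 and 12 of 23 on the left and middle of X, and 14 of 60 and 16 of 59 on the 4 autosomes. The 10 sites formed 5 pairs. In 3 of these a peak over 100 had a lower partner: X 8035562 and X 8021118 (43.3) were 14.7 kb apart, X 4208342 and X 4222026 (42.1) 13.8 kb, and X 6296128 and X 6252115 (71.05) 42.7 kb. The others were X 1344636 with X 1389072, 44.5 kb apart, and X 10765691 with X 10770749, 5.26 kb apart. Of the 23 complete windows, 13 held a strong site and 10 held none.

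Close neighbours stood beside similar shares of strong sites and of other members, with a wide interval for the 22 strong sites. Another series peak lay within 10 kb of 12 of the 22 strong sites (54.5%, 32.2 to 75.6%) and of 143 of the 274 other left and middle X peaks (52.2%, 46.1 to 58.2%). On the 4 autosomes the shares were 68.4% of strong and 63.96% of other peaks. On the right of X they were 38.5% of 13 strong and 72.3% of 238 other peaks. Neighbouring series peaks were a median of 20.6 kb apart on the left and middle of X, 9.26 kb on the right and 14.04 kb on the 4 autosomes. Gaps under 2 kb made up 12.9%, 24% and 17.9% of all gaps in the same regions. The run of close peaks, each under 2 kb from the next, that held the most series peaks spanned X 6735453 to 6744380. It held 5 series peaks, 4 of them found in both replicate lists, and 6 peaks in each replicate list.

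The medians of height on the left and middle of X and on the autosomes had overlapping intervals, while the 95th percentile was higher on the left and middle of X. Median −log10 q in the series list was 5.32 (interval 4.77 to 6.01) on the left and middle of X and 5.34 (5.12 to 5.50) on the 4 autosomes. The 95th percentile was 58.5 (33.5 to 85.7) on the left and middle of X and 26.8 (24.6 to 29.2) on the 4 autosomes. The replicate lists had the same form in medians and 95th percentiles, but not in the highest peak. That peak reached 222 in replicate 1 and 251 in replicate 2 on the 4 autosomes. On the left and middle of X it reached 96.5 and 89.1. The replicate medians averaged 5.28 ± 0.0731 on the left and middle of X and 5.03 ± 0.00503 on the 4 autosomes (SD, n = 2). The replicate 95th percentiles averaged 42.1 ± 2.23 and 20.9 ± 0.548 (SD, n = 2), a difference larger than the spread between replicates. On the right of X the 95th percentile was 40.2 for the series and averaged 44.5 ± 0.537 over the replicate lists (SD, n = 2), so the left and middle did not stand apart from it in the same direction in all lists.

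**Figure D4:**
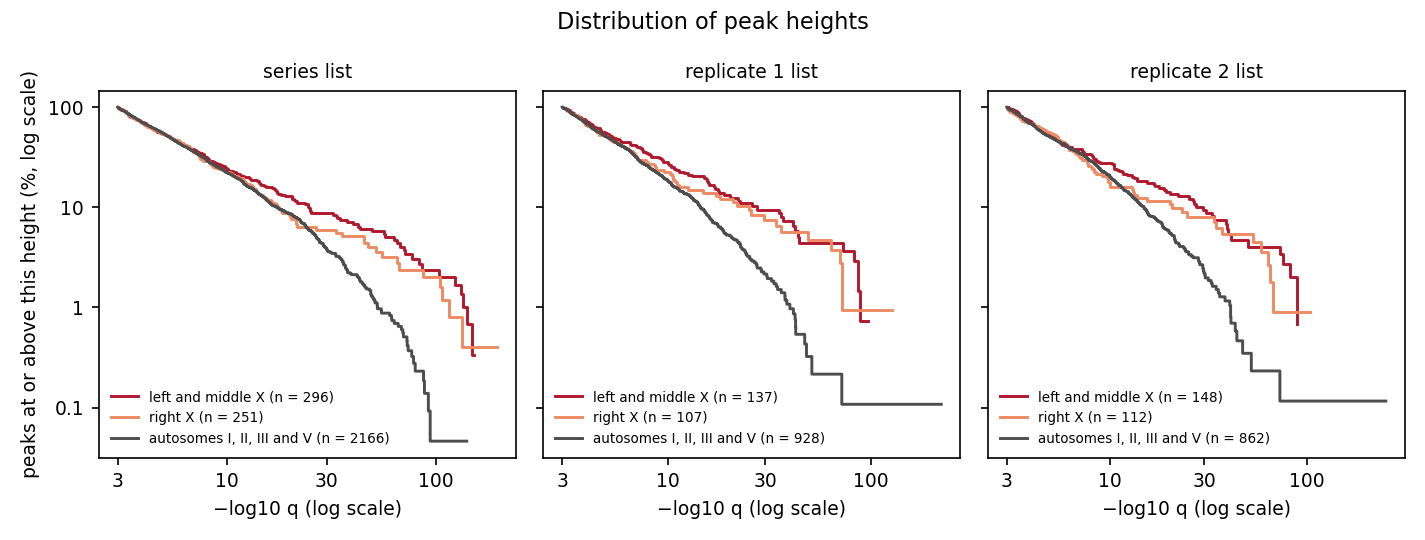
Share of peaks at or above a given height (−log10 q), both on log scales, for the left and middle of X, the right of X and chromosomes I, II, III and V, in each list. The left and middle X and autosomal curves lie close together up to the medians; at a height of 20 the left and middle X share is 12.8% for the series and averages 13.7 ± 0.743% over the replicate lists (SD, n = 2), against 8.63% and 5.42 ± 0.204% on the 4 autosomes.

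The 75th percentiles of −log10 q were 9.78 on the left and middle of X and 9.12 on the 4 autosomes in the series list, 10.7 and 8.03 in replicate 1, and 10.5 and 8.76 in replicate 2. Peaks with a −log10 q over 20 made up 38 of 296 left and middle X peaks (12.8%) and 187 of 2166 autosomal peaks (8.63%) in the series list, where 9.12% of all peaks passed. In replicate 1 the shares were 13.1% on the left and middle of X and 5.28% on the 4 autosomes, against 6.82% of the whole list, and in replicate 2 they were 14.2% and 5.57%, against 7.23%. The difference had the same direction in both libraries.

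Left and middle X peaks had a greater median width than autosomal peaks in all 3 lists, as had those on the right of X. Median width was 415 bp (383 to 443 bp) on the left and middle of X and 385 bp (374 to 395 bp) on the 4 autosomes in the series list, and these intervals overlapped. The replicate medians were 472 and 442.5 bp on the left and middle of X and 388 and 383 bp on the autosomes. On the right of X the median was 394 bp in the series list, 449 bp in replicate 1 and 421 bp in replicate 2. Width followed height, with a Spearman's rho across peaks of 0.648 on the left and middle of X and 0.562 on the 4 autosomes. Among the 100 highest series peaks the median width was 1375 bp for the 22 left and middle X peaks and 878 bp for the 57 autosomal ones. The interquartile ranges, 858 to 1771 bp and 686 to 1388 bp, overlapped, and the median heights of these peaks also differed, at 70.8 and 49.1. In the same class the replicate lists gave 910.5 and 912 bp on the left and middle of X and 726 and 702 bp on the autosomes. The right of X had 888 bp in the series list, and 1014.5 and 766 bp in the replicate lists. For ranks 101 to 500 of the series list the medians were 687 bp on the left and middle of X and 567 bp on the autosomes. For ranks 2001 to 3006 they were 249 and 266 bp, so the order did not hold among the lowest peaks.

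Wide and very narrow peaks were both present. Peaks wider than 1 kb numbered 21 (7.09%) on the left and middle of X and 107 (4.94%) on the 4 autosomes, against 5.66% of all series peaks. On the right of X the share was 7.57%, so this was not particular to the left and middle. Peaks narrower than 100 bp numbered 19 (6.42%) and 110 (5.08%), against 4.89% of all series peaks. The narrowest, 8 bp at X 3536966 to 3536973, had a −log10 q of 3.30 and overlapped a replicate 2 peak. Together the left and middle X peaks covered 154802 bp, or 1.31% of the region, and the autosomal ones 1.53% of the 4 autosomes.

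Support in the replicate lists was counted at an overlap of 1 bp or more. Of the 296 left and middle X peaks, 96 (32.4%, 27.1 to 38.1%) were found in both replicate lists, against 28.9% (27.0 to 30.9%) of the 4 autosomes' peaks and 28.4% of all series peaks. Another 31 were found in replicate 1 alone, 41 in replicate 2 alone and 128 (43.2%) in neither, against 50.5% of all series peaks in neither. The share found in both was thus close to the background. Median −log10 q was 15.2 for the 96 peaks found in both and 3.66 for the 128 found in neither.

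**Figure D5:**
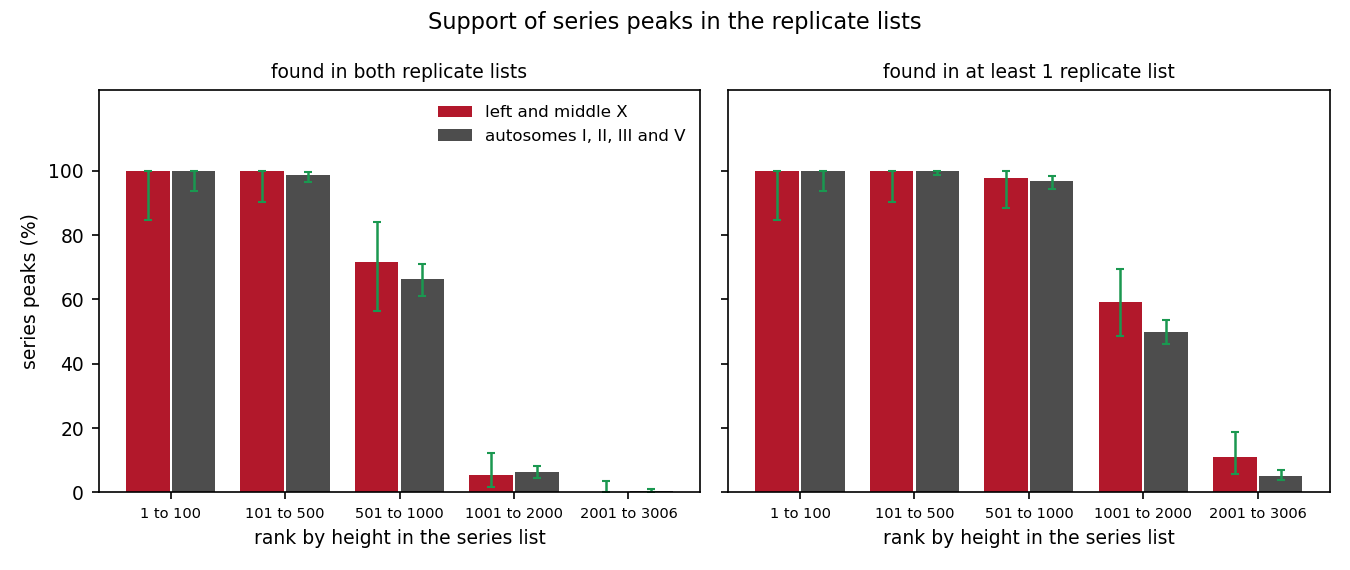
Share of series peaks found in both replicate lists (left) and in at least 1 (right) by class of rank in the series list, for the left and middle of X and for chromosomes I, II, III and V; green bars are exact 95% intervals. Support falls with rank in both groups of peaks, from 100% of the 22 strongest left and middle X peaks to 0 of the 101 weakest found in both lists.

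Support followed height closely. All 36 left and middle X peaks of ranks 101 to 500 were found in both replicate lists, against 97% of all series peaks of those ranks. Of ranks 501 to 1000, 33 of 46 (71.7%, 56.5 to 84.01%) were found in both, against 66.2% on the 4 autosomes and 61.4% of all. Of ranks 1001 to 2000, 5 of 91 (5.49%) were, against 6.20% on the 4 autosomes and 5.7% of all. Below that, 0 of 101 were found in both, which allows a share of up to 2.97% by the floor of 3 counts, the upper end of the exact two-sided interval being 3.59%, and 2 of 734 on the 4 autosomes were, against 0.199% of all. Support in at least 1 replicate list was 97.8% for ranks 501 to 1000, against 96.7% on the 4 autosomes and 92.2% of all. It was 59.3% (48.5 to 69.5%) for ranks 1001 to 2000, against 49.9% (46.2 to 53.6%) on the 4 autosomes and 46.7% of all. For the lowest ranks it was 10.9% (5.56 to 18.7%), against 5.18% (3.69 to 7.04%) on the 4 autosomes and 5.86% of all. The right of X had similar shares, 59.5% for ranks 1001 to 2000 and 11.1% for the lowest ranks. Chromosome IV, which is part of the share of all, had 1.01% and 0%. Within each class the intervals of left and middle X and of the autosomes overlapped.

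More of the left and middle X peaks were found in replicate 2 than in replicate 1, as on the right of X. On the 4 autosomes more were found in replicate 1, and the intervals of the replicates overlapped in each part. Both shares count the same series peaks, so that overlap does not measure the difference between them. Peaks found in replicate 1 alone numbered 31 on the left and middle of X, 29 on its right and 271 on the 4 autosomes. Those found in replicate 2 alone numbered 41, 31 and 197 in the same parts. Of the left and middle X peaks, 42.9% (37.2 to 48.8%) were found in replicate 1 and 46.3% (40.5 to 52.1%) in replicate 2. On the right of X the shares were 42.2% (36.0 to 48.6%) in replicate 1 and 43.0% (36.8 to 49.4%) in replicate 2. On the 4 autosomes they were 41.4% (39.3 to 43.5%) in replicate 1 and 38.0% (35.9 to 40.1%) in replicate 2. Over all series peaks they were 40.1% and 37.8%. The same order stood in the lists themselves, which held 137 and 148 peaks on the left and middle of X and 928 and 862 on the 4 autosomes. The right of X had 107 in replicate 1 and 112 in replicate 2. Among ranks 501 to 1000, replicate 1 held 78.3% of the left and middle X peaks and replicate 2 held 91.3%, against 82.4% and 80.5% of the autosomal ones. For the right of X these shares were 85.3% and 94.1%. With 2 libraries the part of depth or of sampling in this was not tested.

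The replicate lists were also set against each other within the region. Among 137 peaks of replicate 1, 102 (74.5%, 66.3 to 81.5%) had a partner in replicate 2, against 69.8% of the whole list. Among 148 peaks of replicate 2, 102 (68.9%, 60.8 to 76.3%) had a partner in replicate 1, against 73.7% of the whole list. The 35 replicate 1 peaks without a partner had a −log10 q of at most 6.15 and the 46 replicate 2 peaks at most 7.27, so no high site of the region was seen in 1 library alone. Over the 96 members found in both, replicate heights had a Spearman's rho of 0.881, and the median log2 ratio of replicate 1 over replicate 2 was −0.02 with an SD of 0.43. Replicate 1 was higher in 44 of them and replicate 2 in 52. For the 626 autosomal peaks the rho was 0.784 and the SD 0.48. These correlations run across peaks of the same libraries, which are not independent.

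The highest members missing from a replicate list were modest. The first, X 8566634 to 8566928, ranked 685 in the series list with a −log10 q of 10.1 and was found in replicate 2 alone, with 7.27. The next, X 7230016 to 7230776, ranked 691 with 10.01 and was found in replicate 1 alone, with 3.95. The highest member found in neither list was X 6410156 to 6410754, 599 bp wide, at rank 715 with 9.76. None of the 58 left and middle X peaks among the 500 highest was missing from a replicate list, where 97% of ranks 101 to 500 and 100% of ranks 1 to 100 were found in both over the whole list.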

How the data were processed

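Peak lists were held for 2 NHR-11 ChIP libraries and for the series. PeakSeq made the peak calls, on WormBase build WS220, per the file headers and source fields. The aligner, the use of input and any pooling of replicates for the series list are not given in the sources consulted. Each peak's score, below 0.001 in every list, was taken to be the authors' q-value, although the peak lists do not name it. Score times rank number never fell with rank. Any score that rises with rank would pass this check, a p-value included, so it cannot identify a q-value. Height is −log10 of that deposited score. The lists lacked 12, 3 and 1 rank numbers (series, replicate 1, replicate 2), and those peaks were not analysed here.

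Members had column 1 equal to X and a midpoint below 11.8 Mb. The members and measures were chosen with earlier results of these data known. The text names by position the 20 highest members found in both replicate lists, the peaks beside the boundary, the longest gaps, the fullest and sparsest windows and the highest members missing from a replicate list; pairs, runs and divided peaks were chosen after their values were seen. Where several replicate peaks overlapped, the highest was used. The last peak end in any list stood for chromosome length. Shares carry Clopper-Pearson intervals, densities exact Poisson intervals and quantiles binomial order-statistic intervals, all at 95%. Read depth is unknown. Overlap counting and quantile intervals were tested on simulated data. Alternatives covered the boundary, IV, the q threshold, window size, merging, the overlap rule and each replicate list alone. The tools were SciPy 1.17.1, pandas 2.3.3 and NumPy 2.4.6 under Python 3.11.15, with figures by matplotlib 3.10.9.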

Additional observations from a re-analysis of the deposited data

How the results depend on the processing

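Of 51 alternative values for 10 results, 36 stayed within the interval of the reported value, or within 1.5 times a reported count, 15 moved outside it and 0 changed the direction of a result whose interval kept to one side. Among the comparisons with the autosomes, only the density ratio and the 95th percentile of height had such an interval, so no other result could count as changed in direction. The difference in median height was −0.0112 in the series list, and 0.308 and 0.197 in the replicate lists taken alone. The density ratio of left and middle X to the 4 autosomes, 0.753, was 0.813 to 0.946 in the replicate lists taken alone. With q below 1e-05, the difference in median height was 0.77, the difference in median width 89 bp, the share found in both replicate lists 59.7% and the share of replicate 1 peaks found in replicate 2 was 96%. Among series peaks found in both replicate lists, the difference was 1.42 in median height, 76.7 in the 95th percentile of height and 168.5 bp in median width. The width difference of 30 bp in the series list was 59.5 to 84 bp in the replicate lists taken alone. The share found in both lists, 32.4%, was 26.4% with a reciprocal overlap of 50%, 21.3% with midpoints within 100 bp, and 42.9 to 46.3% when only 1 replicate list was asked for. By midpoints within 100 bp, 48.2% of replicate 1 peaks were found in replicate 2. A stricter q or overlap rule changes these shares by its construction; the cause of the other shifts was not tested. The share found in both exceeded that of the autosomes by 3.53 percentage points as reported and by −0.78 with midpoints within 100 bp. No paired analysis was possible because no values of the inputs were held, so ChIP and input of 1 number could not be set against each other. Read depth is unknown, so its part in the weak peaks, in the tail of heights and in the difference between replicates cannot be stated. Peaks near the threshold of a list are easily missed in another, and the lists give no summits, so wide sites can be divided differently.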

Other observations

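These values were singled out after they were seen. A peak at X 293240 to 293626 had the same start and end in both replicate lists, with a −log10 q of 5.69 in replicate 1 and 8.27 in replicate 2, and overlapped no peak of the series list analysed here. It lay left of the first series peak of X and was the highest peak of the region without a series counterpart in each replicate list, of 5 such peaks in each. The other 8 were found in 1 replicate list only.

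At X 9187148 to 9188651 (1504 bp) the series −log10 q of 4.41 was below the values in both replicates, 9.29 in replicate 1 and 5.41 in replicate 2. This was the only one of the 96 members found in both replicate lists whose series value was below either replicate value, a pattern found in 4 of 626 peaks on chromosomes I, II, III and V. The peak borders the stretch without peaks that begins at X 9188652.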
